A study of Mus musculus with 6 samples.

Results

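The 10 genes described here mark the cells that surround the vessels and the surface of the brain: 4 mural genes (Pdgfrb, Rgs5, Cspg4 and Abcc9) and 6 meningeal fibroblast genes (Col1a1, Col1a2, Col3a1, Dcn, Lum and Foxc1). They were taken by symbol, 1 row each, from a table of 45583 rows of gene counts. All 10 had counts, and 9 of them passed the filter on low counts, which kept 13741 genes. The gene left out of the test by that filter was Lum.

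The table held RNA sequencing counts for the cerebral cortex of 6 male mouse fetuses taken at GD15.5 (gestational day), 3 per group, with 1 library per fetus. Dams had received bisphenol A (BPA), a plastic monomer with weak estrogenic activity, daily over GD10.5 to GD14.5 at a dose of 50 µg/kg, and control dams had received vehicle (peanut oil) over the same days. All fetuses were of the Cyp19-EGFP strain, which carries a bacterial artificial chromosome holding Cyp19a1 with an EGFP gene inserted, and were labelled WT and SRY +. The labels do not say whether WT refers to the transgene. They give a number for each fetus but no dam or litter, so p-values measure only the spread between these fetuses. According to the study's methods, the Cyp19-EGFP dams of these fetuses were dosed by subcutaneous injection.

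Pericytes wrap the capillary wall and, with vascular smooth muscle cells, make up the mural cells. They are recruited along growing vessels by PDGF-B from the endothelium, which acts on the receptor PDGFRB. Meningeal fibroblasts form the membranes that cover the brain, lay down fibrillar collagens and small proteoglycans, and secrete factors such as retinoic acid that act on the cortex beneath. In bulk RNA, a smaller number of such cells and less RNA per cell cannot be told apart.

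The mural genes were at nearly the same level in all 6 libraries, and the fibroblast genes were not. In both groups 1 library stood apart in the summed level of the fibroblast genes. Vehicle replicate 3 and BPA replicate 2 held the highest level of every one of the 6 fibroblast genes within their group. For Foxc1 the margin was small, and for Lum it rested on few counts. The summed level of the 6 genes was 78.5 and 67.1 CPM (counts scaled to a common library size, on sizes scaled by TMM, the trimmed mean of M-values) in those 2 libraries and from 17.2 to 25.1 CPM in the other 4. None of the 9 genes tested was called between BPA and vehicle. The BPA comparison of the 5 fibroblast genes tested is therefore also given without these libraries.

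Library totals ran from 3444601 counts in BPA replicate 3 to 7180835 in vehicle replicate 2. A count of 0 allowed a level of up to 0.422 to 0.875 CPM, depending on the library, taken as a floor of 3 counts and for counting error only. In edgeR's quasi-likelihood test with Benjamini-Hochberg adjustment at a threshold of 0.1, 0 of 13741 genes were called (0%), with 302 (2.2%) at an unadjusted p under 0.05. DESeq2 called 3 genes. The 12 dorsal cortex markers summed to between 4041 and 4767 CPM in all 6 libraries. Of 18 markers of bone, cartilage, skin and muscle 8 had at most 3 counts in any library, with the osteoblast gene Bglap at 0 in each. The other 10 had more than 3 counts in some library, among them Col2a1 at 44.6 to 70.0 CPM and Alpl at 4.96 to 8.82 CPM.

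The promoters of 3 of the genes are shown because they represent the 2 patterns: Col3a1 and Foxc1 were highest in vehicle replicate 3 and BPA replicate 2 within their groups, and Rgs5 was even. The range of Foxc1 was far smaller, its highest library being 1.86 times its lowest, against 4.46 times for Col3a1. RefSeq promoter sequence (build GRCm38.p6) was matched to 6 of the 10 genes by symbol, and the 250 bases before each gene's start were searched on both strands for a CCAAT box (CCAAT or ATTGG) and a TATA box (TATAA or TTATA), whose letters are in capitals below. The sequences lie on the plus strand, 5′ to 3′, at chr1:45311288-45311537 for Col3a1, chr13:31806396-31806632 for Foxc1 and chr1:169655251-169655500 for Rgs5, the second of them ending where the annotated exon begins.
Col3a1: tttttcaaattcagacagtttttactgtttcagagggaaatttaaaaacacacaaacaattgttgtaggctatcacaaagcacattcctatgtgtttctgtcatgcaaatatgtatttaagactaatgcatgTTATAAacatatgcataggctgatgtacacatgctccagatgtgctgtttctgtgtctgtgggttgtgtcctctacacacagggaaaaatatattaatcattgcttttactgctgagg
Foxc1: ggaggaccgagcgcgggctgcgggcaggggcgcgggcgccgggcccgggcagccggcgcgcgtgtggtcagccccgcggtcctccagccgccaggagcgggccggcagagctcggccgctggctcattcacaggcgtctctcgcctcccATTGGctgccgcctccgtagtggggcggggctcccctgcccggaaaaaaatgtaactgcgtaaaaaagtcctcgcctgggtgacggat
Rgs5: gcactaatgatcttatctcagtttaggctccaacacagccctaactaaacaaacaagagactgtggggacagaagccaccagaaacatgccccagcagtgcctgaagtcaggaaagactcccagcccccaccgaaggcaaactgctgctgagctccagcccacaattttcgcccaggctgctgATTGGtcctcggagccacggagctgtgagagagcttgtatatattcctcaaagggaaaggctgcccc
The letters of the CCAAT box were in 3 of the 6 windows, those of Rgs5, Col1a2 and Foxc1, at 67, 109 and 101 bases before the RefSeq start, which for Foxc1 lies 13 bases past the GENCODE start of the gene, where the printed sequence ends. Among 32851 promoter windows of the same 250 bases, 33.8% held them. The letters of the TATA box were in 1 of the 6, that of Col3a1, where the forms on both strands overlap 117 and 118 bases before the start, against 22.8% of all windows. Only these exact letters were searched, so other forms, such as the run tatatatt near the end of the Rgs5 window, were not counted. The CCAAT letters were thus present both in an even gene, Rgs5, and in an uneven one, Col1a2, and these matches are a description of the letters alone.

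Type I collagen, the main fibrillar protein of connective tissue, is built from the products of Col1a1 and Col1a2. Col1a1 (GRCm38, chromosome 11, 94936224 to 94953042, plus strand) was at 2.06, 2.82 and 22.7 CPM in vehicle replicates 1, 2 and 3, and at 5.50, 13.3 and 4.96 CPM in BPA replicates 1, 2 and 3. These values rest on 14, 20 and 115 counts in vehicle and on 35, 82 and 17 counts in BPA. Vehicle replicate 3 was the highest of all, BPA replicate 2 came next, and the groups overlapped.

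The exact Poisson 95% interval of Col1a1 in vehicle replicate 3 was 18.7 to 27.2 CPM, apart from that of every other library, the nearest being 10.6 to 16.5 CPM in BPA replicate 2. Its log2 fold change (BPA over vehicle) was -0.05 with an SE of 0.633 and a 95% interval from -1.39 to 1.30 (edgeR quasi-likelihood, adjusted p = 1). The interval spans both directions, so these libraries leave the size of any difference wide.

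Col1a2 (chromosome 6, 4504814 to 4541544, plus strand) was at 4.71, 3.24 and 20.5 CPM in vehicle and at 5.03, 14.46 and 4.67 CPM in BPA. The same 2 libraries were high, and the other 4 lay close together. Its log2 fold change was -0.09 ± 0.541 (SE), with an interval from -1.24 to 1.06 (edgeR, adjusted p = 1).

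Per kilobase of annotated exon, the level of Col1a1 was between 0.828 and 2.09 times that of Col1a2 over the 6 libraries. The length used joins the exons of all annotated transcripts, 6563 bases for Col1a1 and 12426 for Col1a2, and the size of this ratio depends on it. The lowest of these ratios was in vehicle replicate 1, where Col1a1 had 14 counts, and the other 5 were from 1.65 to 2.09.

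Col3a1, which encodes the collagen of reticular fibers and vessel walls, lies on chromosome 1 (45311538 to 45349706, plus strand). It was at 5.88, 7.74 and 17.7 CPM in vehicle and at 8.64, 23.4 and 5.25 CPM in BPA. Here BPA replicate 2 was higher than vehicle replicate 3, and the groups again overlapped. In BPA over vehicle its log2 fold change was 0.37 ± 0.428 (SE), with an interval from -0.54 to 1.28 (edgeR, adjusted p = 1).

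Col5a2, a minor fibrillar collagen gene on the opposite strand, ends 24.6 kb from the end of Col3a1. It was at 30.6, 30.7 and 25.04 CPM in vehicle and at 24.03, 29.1 and 23.6 CPM in BPA, without the peak of its neighbor in vehicle replicate 3 (log2 fold change -0.17 ± 0.141 SE, edgeR adjusted p = 1). No gene of another strand overlapped the exons of Col1a1, Col1a2, Dcn, Lum or Foxc1 in the annotation.

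Dcn and Lum encode decorin and lumican, small leucine-rich proteoglycans that bind collagen fibrils, and lie 47.0 kb apart on chromosome 10 (97479609 to 97518143 and 97565128 to 97572703, both on the plus strand). Dcn was at 0.735, 1.55 and 8.87 CPM in vehicle and at 1.57, 8.29 and 1.75 CPM in BPA. Vehicle replicate 3 and BPA replicate 2 were nearly level with each other, and the other 4 libraries had from 5 to 11 counts. The log2 fold change of Dcn was 0.28 ± 0.694 (SE), with an interval from -1.20 to 1.75 (edgeR, adjusted p = 1), the widest of the 9 genes tested.

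Lum had 1, 0 and 11 counts in vehicle and 3, 5 and 2 counts in BPA. The single library with more than 5 counts was vehicle replicate 3, at 2.17 CPM. In BPA replicates 1, 2 and 3 the exact Poisson 95% intervals overlapped, at 0.0972 to 1.38, 0.264 to 1.90 and 0.0707 to 2.11 CPM. The count of 0 in vehicle replicate 2 allowed up to 0.422 CPM by the floor of 3 counts, and its exact Poisson 95% interval reached 0.519 CPM. Its mean log2 CPM was 0.57 higher in BPA, while its mean CPM was lower there, at 0.622 ± 0.174 (SD, n = 3) against 0.772 ± 1.21 (SD, n = 3). An exact two-sided permutation test of the log2 CPM values over the 6 libraries gave p = 0.6, where the smallest p that 3 against 3 can give is 0.1.

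Foxc1 encodes a forkhead transcription factor needed for the meninges to form, and lies on chromosome 13 (31806633 to 31812476, plus strand). It was at 3.68, 5.07 and 6.51 CPM in vehicle and at 3.93, 6.83 and 4.38 CPM in BPA. The same 2 libraries were the highest of their groups, with a far smaller range than for the collagen genes: the highest library was 1.86 times the lowest, against 11.0 times for Col1a1. The counting intervals of vehicle replicate 3 and vehicle replicate 1 overlapped, at 4.48 to 9.14 and 2.38 to 5.43 CPM. That of BPA replicate 2, 4.92 to 9.23 CPM, overlapped those of BPA replicates 1 and 3, at 2.54 to 5.80 and 2.45 to 7.22 CPM. For Foxc1 the log2 fold change was 0.03 ± 0.292 (SE), with an interval from -0.59 to 0.65 (edgeR, adjusted p = 1).

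**Figure D1:**
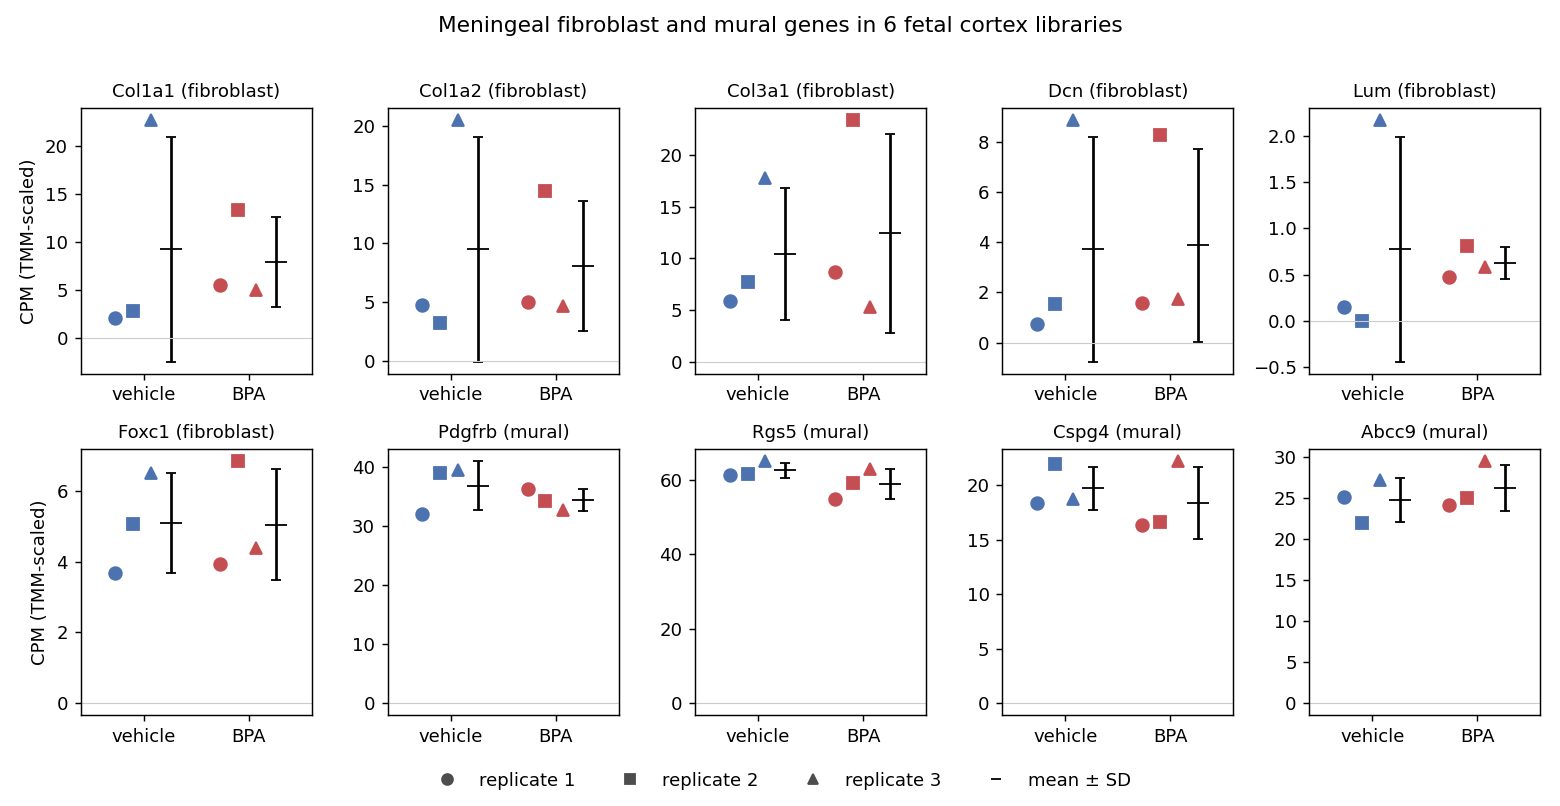
Level of each of the 10 genes in each library, as CPM on TMM-scaled library sizes (linear axes, 1 panel per gene), with vehicle in blue, BPA in red, replicates by symbol, and the group mean ± SD in black. In the 6 fibroblast panels, vehicle replicate 3 and BPA replicate 2 are the highest points of their groups, as with Col1a1 at 22.7 and 13.3 CPM. In the 4 mural panels the points lie close together.

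Among the mural genes, Pdgfrb, the receptor through which pericytes are recruited, lies on chromosome 18 and was at 32.1, 38.9 and 39.4 CPM in vehicle and at 36.3, 34.1 and 32.7 CPM in BPA. Vehicle replicate 1 was the lowest library and vehicle replicate 3 the highest, so that the BPA libraries lay within the vehicle range. The log2 fold change was -0.09 ± 0.127 (SE), with an interval from -0.36 to 0.18 (edgeR, adjusted p = 1). 

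Rgs5, a regulator of G protein signaling used as a pericyte marker, lies on chromosome 1 (169655501 to 169695813, plus strand). It was at 61.2, 61.5 and 64.9 CPM in vehicle and at 54.8, 59.2 and 62.7 CPM in BPA. The highest library was 1.18 times the lowest, the smallest such ratio of the 9 genes with a count in every library, and the groups overlapped through BPA replicate 3. The log2 fold change was -0.09 ± 0.109 (SE), with an interval from -0.32 to 0.14 (edgeR, adjusted p = 1).

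Cspg4 encodes the proteoglycan NG2, which oligodendrocyte precursors also carry, so that it is not particular to mural cells. It lies on chromosome 9 (56865033 to 56899870, plus strand) and was at 18.4, 22.0 and 18.7 CPM in vehicle and at 16.3, 16.6 and 22.2 CPM in BPA. BPA replicate 3 was the highest library and the other 2 BPA libraries were the lowest. Its log2 fold change was -0.13 ± 0.163 (SE), with an interval from -0.48 to 0.21 (edgeR, adjusted p = 1).

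Abcc9 encodes SUR2, the regulatory subunit of the potassium channel of pericytes and smooth muscle, and its pore subunit gene Kcnj8 lies 16.2 kb away on chromosome 6. Abcc9 (142587862 to 142702315, minus strand) was at 25.2, 22.0 and 27.2 CPM in vehicle and at 24.2, 25.0 and 29.5 CPM in BPA, with overlapping groups. The antisense gene 5330439B14Rik, which shares exonic positions with it, had at most 1 count in a library. The log2 fold change of Abcc9 was 0.07 ± 0.142 (SE), with an interval from -0.23 to 0.37 (edgeR, adjusted p = 1), and it was just below 0 without vehicle replicate 2 or without BPA replicate 3. Kcnj8 was at 4.71, 5.35 and 3.35 CPM in vehicle and at 3.93, 4.88 and 6.13 CPM in BPA.

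In counts, 0 of the 9 genes tested were called at an adjusted p under 0.1 (0% of all genes), and 0 were at an unadjusted p under 0.05 in either direction, against 1.02% of all genes higher in BPA and 1.18% lower. DESeq2, limma-voom, and the exact and likelihood ratio tests of edgeR also called 0. For 0 of the 10 genes did the groups fail to overlap, against 6.75% of all genes. The median log2 fold change was -0.09 over the 4 mural genes (1 higher and 3 lower in BPA) and 0.03 over the 5 fibroblast genes tested (3 higher and 2 lower), against 0.0016 over all genes tested. The mural intervals lay within 0.48 of 0 on the log2 scale, while those of the 4 matrix genes tested reached from 1.24 to 1.75 on their wider side.

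The spread between libraries of 1 group separated the 2 sets. The SD of log2 CPM within groups was 0.0761 to 0.199 for the mural genes and 0.391 to 1.42 for the fibroblast genes tested, with a median of 0.177 over all genes tested. Among tested genes of like level, within a factor of 1.2 in mean CPM, between 12.3% and 56.0% varied less than a given mural gene. For Col1a1, Col1a2, Col3a1 and Dcn that share was 99.5% or more, and for Foxc1 it was 78.7%. 

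Against counting error, the spread gave a chi-square per degree of freedom of 0.828 to 1.91 for the mural genes and 2.59 for Foxc1, with a median of 2.30 over all genes tested. That median covers genes of every level and, unlike the shares above, was not matched for level. The chi-square per degree of freedom was 27.4 for Dcn, 29.8 for Col3a1, 40.7 for Col1a2 and 55.7 for Col1a1. The mural genes thus varied little beyond the counting of reads, and the 4 matrix genes far beyond it.

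**Figure D2:**
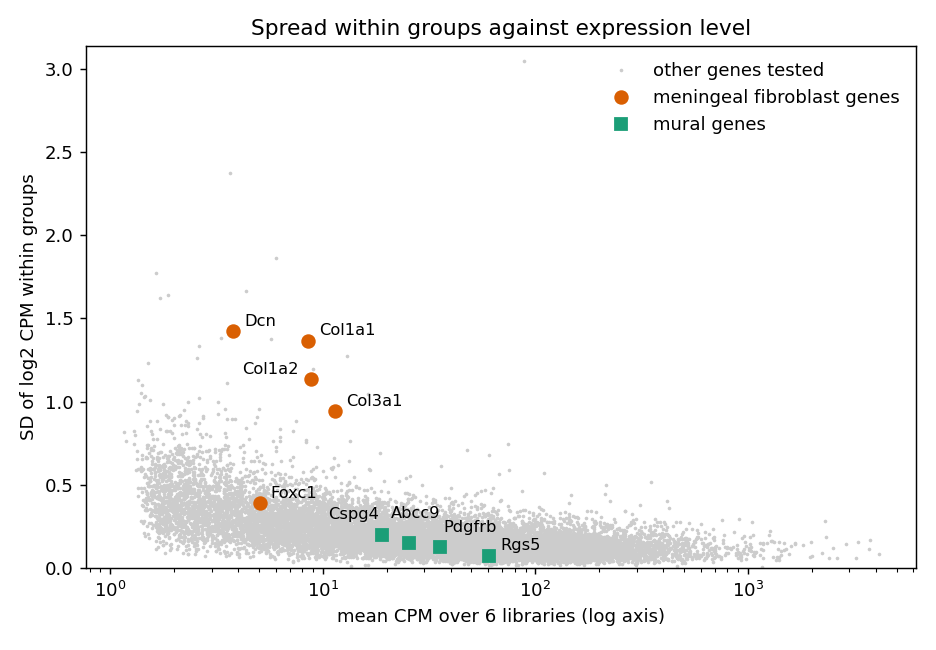
SD of log2 CPM within groups (vertical axis) against mean CPM over the 6 libraries (horizontal log axis) for all 13741 genes tested (gray points), with the fibroblast genes as orange circles and the mural genes as green squares. Dcn, Col1a1, Col1a2 and Col3a1 lie above nearly all genes of their level, at SDs from 0.942 to 1.42, and the mural genes lie within the main band.

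To compare levels between genes, CPM was divided by the annotated exonic length in kb. This length joins the exons of all annotated transcripts and can exceed that of a single mRNA, so the order below depends on it. Rgs5 had the highest level, at 13.4 ± 0.760 CPM per kb (SD over the 6 libraries), followed by Pdgfrb at 6.49 ± 0.572, Abcc9 at 3.05 ± 0.308 and Cspg4 at 1.59 ± 0.213 CPM per kb. No library of one of these genes overlapped the next in this order.

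The fibroblast genes followed, with Col1a1 at 1.30 ± 1.22 CPM per kb, Col3a1 at 1.17 ± 0.754, Foxc1 at 0.866 ± 0.228, Col1a2 at 0.706 ± 0.567, Dcn at 0.650 ± 0.639 and Lum at 0.285 ± 0.318 CPM per kb. From Cspg4 downward, neighbors in this order did not differ beyond their spread, and in vehicle replicate 3 the Col1a1 level, at 3.46 CPM per kb, was above that of Abcc9, at 3.25 CPM per kb.

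As a summed level, the 4 mural genes were at 137, 144 and 150.3 CPM in vehicle and at 132, 135 and 147 CPM in BPA, a log2 ratio of group means of -0.06. The 6 fibroblast genes were at 17.2, 20.4 and 78.5 CPM in vehicle and at 25.1, 67.1 and 21.6 CPM in BPA, a log2 ratio of -0.03. The count of fibroblast reads per mural read was 0.126, 0.141 and 0.522 in vehicle and 0.191, 0.498 and 0.147 in BPA. In this ratio, which needs no library scaling, the same 2 libraries stood apart.

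For all 6 fibroblast genes, vehicle replicate 3 was the highest vehicle library and BPA replicate 2 the highest BPA library, against 0 of the 4 mural genes and 13.0% (1786) of all genes tested. The 6 genes share their libraries, and so they are not separate observations of this pattern. 

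Some other genes of the meninges showed it as well. Of 25 further meningeal genes, 23 had more than 3 counts in some library, and 14 of these (60.9%) were highest in vehicle replicate 3 and in BPA replicate 2 within their groups. That cut lets a gene enter through these 2 libraries alone. The share is thus no support for the pattern and cannot be set against the 13.0% of all genes tested. Among the 12 that passed the filter on low counts, Cxcl12, Bmp7, Igf2, Slc13a4 and Nov had the pattern and the others did not. The same cut was used for the other lists below. Aldh1a2, which makes retinoic acid in the meninges, was at 0.147, 0 and 3.35 CPM in vehicle and at 0.471, 1.79 and 0 CPM in BPA, with the 0 in vehicle replicate 2 allowing up to 0.422 CPM and that in BPA replicate 3 up to 0.875 CPM. Slc22a6, an organic anion transporter gene, had 0, 0 and 20 counts in vehicle and 4, 10 and 0 counts in BPA. These 2 libraries held most counts of both genes.

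The gap junction gene Gjb6 had 0, 0 and 15 counts in vehicle and 1, 6 and 0 in BPA, and Gjb2 had 1, 0 and 10 counts in vehicle and 3, 9 and 0 in BPA. Igf2, a growth factor gene that vessels and meninges transcribe, was at 61.04, 90.7 and 120.3 CPM in vehicle and at 70.2, 113 and 64.2 CPM in BPA. Foxc2, a forkhead gene related to Foxc1, had 2, 1 and 7 counts in vehicle and 8, 8 and 1 in BPA. Foxc2 was thus as high in BPA replicate 1 as in BPA replicate 2, unlike the gap junction genes. Aldh1a2, Slc22a6, Gjb6, Gjb2, Igf2 and Foxc2 were named after their values were seen.

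Some genes of the list did not follow. Ptgds, the prostaglandin D synthase of the arachnoid, was at 2.06, 1.69 and 17.2 CPM in vehicle and at 6.28, 5.36 and 1.75 CPM in BPA, so that vehicle replicate 3 was high while BPA replicates 1 and 2 were near each other. Crabp2, a retinoic acid binding protein gene, was at 2.35, 2.11 and 2.76 CPM in vehicle and at 2.04, 1.30 and 1.75 CPM in BPA. Its log2 fold change was -0.49, at an unadjusted p of 0.187 and an edgeR adjusted p of 1.

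**Figure D3:**
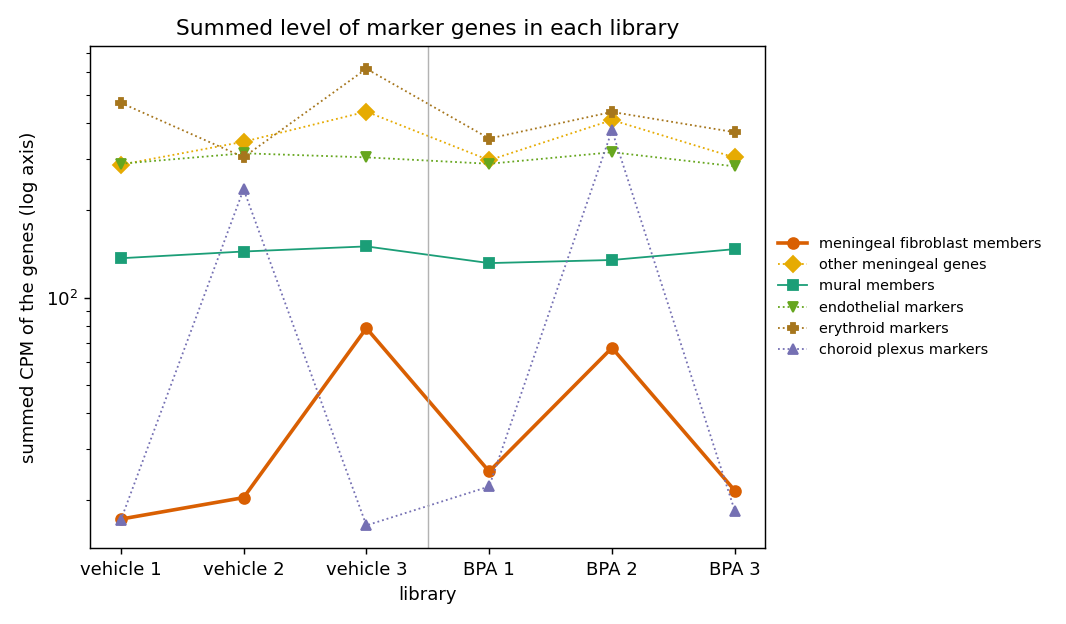
Summed CPM of 6 lists of genes (vertical log axis) in each of the 6 libraries, vehicle on the left and BPA on the right of the gray line, with 1 color and symbol per list. The fibroblast genes peak in vehicle replicate 3 and BPA replicate 2 (78.5 and 67.1 CPM), the choroid plexus markers in vehicle replicate 2 and BPA replicate 2 (237 and 378 CPM), and the mural and endothelial lines are flat.

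Markers of other cell types were read in the same libraries. The 24 endothelial markers summed to 290 to 315 CPM in vehicle and to 284 to 318 CPM in BPA, and 3 of 24 were highest in both of the libraries that were high in collagen genes. The 12 choroid plexus markers summed to 17.1, 237 and 16.4 CPM in vehicle and to 22.3, 378 and 18.4 CPM in BPA, and 0 of 12 had the fibroblast pattern. BPA replicate 2 was thus high in both, while vehicle replicate 3 held the lowest choroid plexus level.

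The erythroid markers, of which 12 of 14 had a row, summed to 470, 305 and 616 CPM in vehicle and to 354, 437 and 372 CPM in BPA. They were highest in vehicle replicate 3 and BPA replicate 2, and 5 of the 11 with more than 3 counts (45.5%) had the fibroblast pattern. Over all genes tested, which passed another filter, 13.0% had that pattern. The 14 microglia markers summed to 68.1 to 101 CPM in vehicle and to 79.4 to 87.6 CPM in BPA. Of these, 5 of 14 (35.7%) had it, among them Mrc1 and Pf4, macrophage genes that are not particular to microglia. Of the markers of bone, cartilage, skin and muscle with more than 3 counts, 1 of 10 had it, with a summed level of 60.7 to 70.8 CPM in vehicle and 67.1 to 84.8 CPM in BPA. The part of these cells in the fibroblast levels was not tested.

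Because 1 library per group carried most of the fibroblast counts, the BPA comparison of these genes turned on which libraries were used. Without vehicle replicate 3, the log2 fold changes were 1.73 for Col1a1 (unadjusted p = 0.000869), 1.07 for Col1a2 (unadjusted p = 0.0233), 0.93 for Col3a1 (unadjusted p = 0.0438) and 1.81 for Dcn (unadjusted p = 0.0156), all higher in BPA, with edgeR adjusted p of 1 for each. Without BPA replicate 2, they were -0.69, -0.87, -0.48 and -1.05 in the same order, at edgeR unadjusted p of 0.36, 0.164, 0.238 and 0.211. Foxc1 was at 0.22 without the first of these libraries and at -0.29 without the second. The sign of all 4 matrix genes thus differed between these omissions. Each omitted library was named for holding the highest level of these genes in its group. Shifts in opposite directions follow from that choice, and the p-values of these omissions are no test of BPA.

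Without both libraries, a setting chosen after their levels were seen, the log2 fold change was 1.104 for Col1a1 (unadjusted p = 0.00871, edgeR adjusted p = 1), 0.30 for Col1a2, 0.084 for Col3a1, 0.50 for Dcn and -0.094 for Foxc1. The log2 ratio of the summed fibroblast level was 1.01 without vehicle replicate 3, -0.73 without BPA replicate 2 and 0.31 without both. That of the summed mural level stayed between -0.11 and -0.03 when any 1 library was left out.

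**Figure D4:**
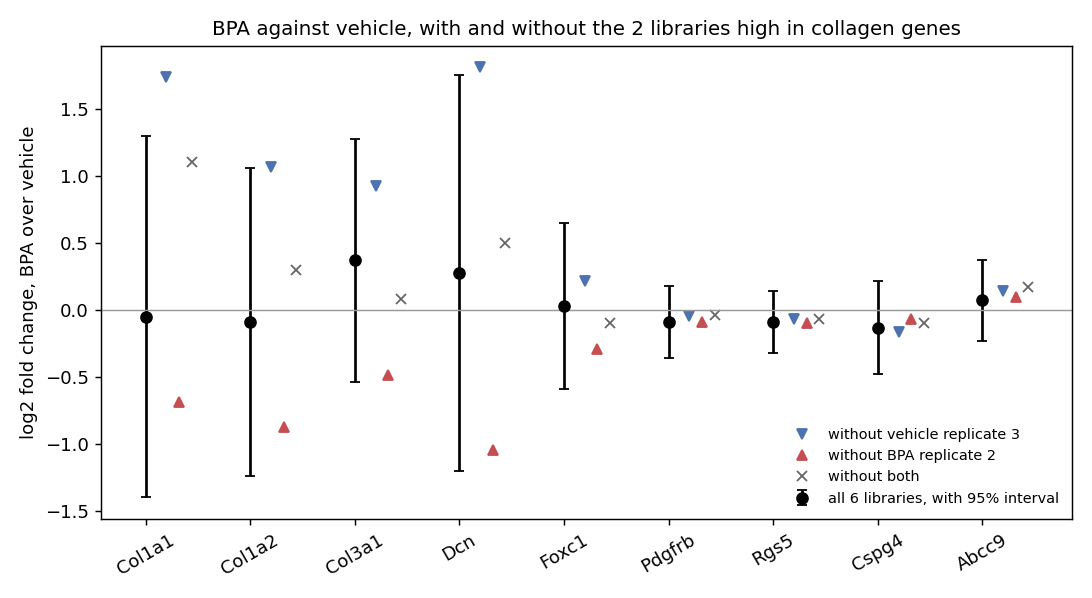
Log2 fold change of BPA over vehicle for the 9 genes tested, as estimated by edgeR from all 6 libraries (black points, bars are 95% intervals), without vehicle replicate 3 (blue triangles), without BPA replicate 2 (red triangles) and without both (gray crosses). For Col1a1 the estimate runs from -0.69 to 1.73, while the estimates of the 4 mural genes stay near 0 in each setting.

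The other genes of the pathways around these 10 were read from lists of known function, and 0 were called at an adjusted p under 0.1. Over the lists, 7 of 176 genes tested (3.98%) had an unadjusted p under 0.05, against 2.2% of all genes. Of 20 further mural genes 14 were tested, with a median log2 fold change of -0.04 (5 higher and 9 lower in BPA). Ebf1, a transcription factor gene of mural cells that cortical neurons also transcribe, was at 90.3, 114 and 89.5 CPM in vehicle and at 81.8, 85.2 and 80.5 CPM in BPA (log2 fold change -0.25 ± 0.116 SE, unadjusted p = 0.0478, edgeR adjusted p = 1), and its groups did not overlap. Foxf2, a forkhead gene of brain pericytes, had a log2 fold change of -0.24 (unadjusted p = 0.262), and Anpep, an aminopeptidase gene, one of -0.30 (unadjusted p = 0.463).

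Among genes of contractile smooth muscle, Acta2 had 2 to 5 counts per library, Myh11 had 0 to 3 and Cnn1 had 0 or 1. Tagln had 9 to 23 counts and Mylk, the myosin light chain kinase gene, 31 to 55. Notch3, a receptor gene of mural cells, was at 50.7 to 72.8 CPM in vehicle and at 53.6 to 67.4 CPM in BPA, without the fibroblast pattern. Of the 18 further mural genes with more than 3 counts, 5 (27.8%) had that pattern, against 13.0% of all genes tested, which passed another filter. Vtn and Heyl were among the 5. Vtn, which encodes vitronectin, was at 10.001, 14.4999 and 17.2 CPM in vehicle and at 11.9, 15.8 and 9.92 CPM in BPA. Heyl, a target gene of Notch signaling, was at 8.09, 10.1 and 10.3 CPM in vehicle and at 8.79, 12.03 and 6.71 CPM in BPA.

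Of 25 further meningeal genes 12 were tested, with a median of -0.13 (4 higher and 8 lower). Beside Crabp2, the smallest unadjusted p values were those of Crym, at a log2 fold change of 0.28 (unadjusted p = 0.417), and Pdgfra, at -0.14 (unadjusted p = 0.422).

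Of 31 other genes of the fibrillar matrix 23 were tested, with a median of 0.10 (14 higher and 9 lower), and 9 of the 27 with more than 3 counts (33.3%) were highest in vehicle replicate 3 and BPA replicate 2. Fbln2, which encodes fibulin-2, was at 16.6, 14.6 and 19.3 CPM in vehicle and at 11.1, 13.0 and 16.9 CPM in BPA (log2 fold change -0.33, unadjusted p = 0.0989). Postn, which encodes periostin, was at 2.06, 1.83 and 1.97 CPM in vehicle and at 1.88, 5.20 and 1.75 CPM in BPA, with BPA replicate 2 alone being high. Col14a1 had a log2 fold change of 0.63 (unadjusted p = 0.13), and the edgeR adjusted p was 1 for all 3 genes.

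The enzymes and chaperones that build collagen are used by many cell types, and 21 of the 25 on the list were tested. The fibroblast pattern was present in 6 of 25 (24.0%). Their median was 0.04 (13 higher and 8 lower), and 2 had an unadjusted p under 0.05. P3h3, a prolyl 3-hydroxylase gene, was at 38.5, 51.1 and 45.2 CPM in vehicle and at 64.1, 50.5 and 58.6 CPM in BPA (log2 fold change 0.36 ± 0.133 SE, unadjusted p = 0.0154). P4ha2, a prolyl 4-hydroxylase subunit gene, was at 3.82, 5.35 and 5.72 CPM in vehicle and at 8.48, 7.64 and 5.54 CPM in BPA (0.59 ± 0.25 SE, unadjusted p = 0.0326). The groups overlapped for both genes, with edgeR adjusted p of 1. Plod2, a lysyl hydroxylase gene, had a log2 fold change of 0.30 (unadjusted p = 0.111).

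All 18 basement membrane genes were tested, with a median of 0.02 (11 higher and 7 lower), and 2 of 18 (11.1%) had the fibroblast pattern. Lama5, which encodes a laminin chain of the vessel and pial basement membranes, was at 16.9, 16.2 and 12.8 CPM in vehicle and at 21.7, 21.5 and 19.8 CPM in BPA. Its groups did not overlap, and its log2 fold change was 0.45 ± 0.155 (SE), with an unadjusted p of 0.0106 and an edgeR adjusted p of 1. Col4a6, a basement membrane collagen gene, had a log2 fold change of 0.37 (unadjusted p = 0.211), and Dag1, the dystroglycan gene, one of -0.11 (unadjusted p = 0.233).

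Of 23 genes of PDGF and TGF-beta signaling 22 were tested, with a median of -0.07 (8 higher and 14 lower), and 3 of 23 had the fibroblast pattern. Ltbp4, a TGF-beta binding protein gene, had a log2 fold change of 0.22 (unadjusted p = 0.132), Smad2, a TGF-beta signal transducer, -0.17 (unadjusted p = 0.157) and Pdgfa, a ligand, -0.28 (unadjusted p = 0.198), each with an edgeR adjusted p of 1. The summed level of this list was 743 to 764 CPM in vehicle and 733 to 744 CPM in BPA.

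Among the cell type markers, Hba-a1, an alpha globin gene, was at 183, 99.7 and 224 CPM in vehicle and at 111, 132 and 131 CPM in BPA (log2 fold change -0.43, unadjusted p = 0.0452). Reads of Hba-a1 can come from its near-identical copy, so its level is uncertain. Olig2 and Olig1, transcription factor genes of oligodendrocyte precursors, had log2 fold changes of -0.44 (unadjusted p = 0.0173) and -0.45 (unadjusted p = 0.0303). Cspg4, which these precursors share with mural cells, was -0.13 with the interval given above. The smallest unadjusted p among endothelial markers was 0.0759 (Plvap, -0.55), among choroid plexus markers 0.276 (Clic6, 0.86), among microglia markers 0.211 (Tmem119, -0.47), among the bone to muscle markers 0.124 (Col2a1, 0.22) and among dorsal cortex markers 0.27 (Bcl11b, -0.11). The edgeR adjusted p of each of these genes was 1.

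The genes whose pattern over the 6 libraries was most like that of the fibroblast genes were found by Pearson's r between log2 CPM and the mean standardized log2 CPM of the 5 tested fibroblast genes, among 11580 genes of at least 5 CPM. They were Primpol (r = 0.983), Bsg (0.979), Gm12669 (0.977), 6330403K07Rik (0.976) and Rab3d (0.9752). These are the highest of 11580 values over 6 libraries that share 2 high points, and none of the 5 varied as widely as the collagen genes: Bsg, which encodes basigin of the vessel wall and choroid plexus, was at 191, 197 and 231 CPM in vehicle and at 193, 237 and 200.4 CPM in BPA. For the mural genes they were Haus4 (0.977), Pgbd5 (0.9755), Tob2 (0.974), Gadd45gip1 (0.966) and Pcdhga12 (0.964), where the mural profile itself hardly varied.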

How the data were processed

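Counts per gene were those the authors deposited for 6 libraries, as raw whole numbers under gene symbols. According to the study's methods and the submitters' processing notes, strand-specific libraries of total RNA were sequenced as single-end reads, which were checked with FastQC, aligned to GRCm38 with TopHat2 2.0.14 and counted with featureCounts on GENCODE models. StringTie 1.2.4 and edgeR 3.14.2 are also named. The settings for strand and for multiply aligned reads are not stated. Both can move counts between overlapping genes or genes of shared sequence. The methods give the age on the labels, while the study's results give a later one.

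Groups came from the labels, and replicates were numbered in accession order, which pairs no samples. All 6 sample columns were used. Symbols were matched to GENCODE M21 for positions and exonic length. In R 4.3.3, genes were kept by filterByExpr of edgeR 4.0.16 (minimum count 10, minimum total 15), which left 13741 of 45583 rows (23501 with a count) and 99.7% of counts. Libraries were scaled by TMM, and the groups were compared in an edgeR quasi-likelihood fit with no covariate, adjusted over all genes tested by Benjamini-Hochberg at a threshold of 0.1. The SE is that implied by the test statistic. CPM used TMM-scaled library sizes, and log2 CPM a prior count of 2. Poisson intervals (95%) and the floor of 3 counts cover counting error only.

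Alternatives were DESeq2 1.42.0, limma-voom (limma 3.58.1), the likelihood ratio test and the classic exact test of edgeR, a robust dispersion, 3 further scalings, 3 further filters, and omission of each library. The 10 genes and all lists were chosen with earlier results of these data known. From each list of mural, meningeal, matrix, collagen biosynthesis, basement membrane and signaling genes, those at an unadjusted p under 0.05 are named, filled up to 3 by the smallest p. From each list of cell type markers, only genes at an unadjusted p under 0.05 or the gene with the smallest p are named by this rule. Any others were chosen after their values were seen. The scripts were tested on simulated counts.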

Additional observations from a re-analysis of the deposited data

How the results depend on the processing

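None of the 10 genes, so far as each setting tested them, was called at an adjusted p under 0.1 in any of the settings run. Of 157 log2 fold changes of the 9 tested genes under these settings 138 kept their sign and 19 did not, and the lowest adjusted p was 0.977. With limma-voom, Col1a1 was at 0.72 and Col1a2 at 0.25. Without vehicle replicate 3 and BPA replicate 2 together, chosen after seeing the data, Col1a1 was at 1.104, Col1a2 at 0.30 and Foxc1 at -0.094. When 1 library was left out at a time, log2 fold changes ran from -0.69 to 1.73 for Col1a1, -0.87 to 1.07 for Col1a2, -0.48 to 0.93 for Col3a1, -1.05 to 1.81 for Dcn, -0.29 to 0.22 for Foxc1 and -0.0089 to 0.14 for Abcc9. The 10 genes at an unadjusted p under 0.05 numbered 0 with all libraries, 0 to 4 with 1 library left out and 1 with both left out. Over all genes, there were 19 calls with no filter, 4 with the likelihood ratio test, 3 with DESeq2, 2 with the classic exact test, 2 with both libraries left out and 0 to 1 with 1 left out. Of the listed genes, 2 were called with no filter (Fmod and Ttr). At an unadjusted p under 0.05 there were 7 of them, but 16 with no filter, 4 with DESeq2, 11 with both libraries left out and 2 to 16 with 1 left out. The share of all genes at an unadjusted p under 0.05 was 2.2% in the main fit. It was not counted in the other settings, so the counts of the 10 genes and of the listed genes there cannot be set against it. With a minimum of 10 CPM the fibroblast genes were not tested. Relations of the fibroblast level to other markers across libraries, with their scaling alternative, were not run, since the libraries fall into 2 high and 4 low ones. No paired analysis was possible because the labels give no shared replicate numbers. Depth limits Lum, with at most 11 counts in a library, and 3 libraries per group limit every interval. The cause of the shifts beyond the omitted libraries was not tested.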
